A study of Mus musculus with 24 samples.

Results

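Proteasome genes were followed in 12 mouse B-cell lymphomas, each measured untreated and after 5 days with Adriamycin (ADR, also called doxorubicin), a cancer drug that breaks DNA. Members were all genes whose annotated symbol starts with Psma, Psmb, Psmc or Psmd followed by a number, leaving out the immunoproteasome genes Psmb8, Psmb9 and Psmb10, and 37 of the 18193 genes measured met this rule. One of them, Psmc3ip, has the letters but encodes a factor of meiotic recombination and is no part of the proteasome, so it is described apart and the remaining 36 are called the proteasome genes. They comprise 16 genes of the 20S core, 17 of the 19S regulatory particle and 3 of chaperones that assemble the base of that particle.

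The lymphomas arose in mice with the Eµ-Myc transgene, which drives Myc in the B-cell lineage, and each is a separate tumour. All cells of both groups, the untreated ones included, carried retroviral Bcl2, which blocks apoptosis, had been selected with puromycin, and grew on irradiated NIH 3T3 mouse fibroblasts. One group of 12 arrays was left untreated and the other 12 came from the same lymphomas after ADR at 0.05 µg/ml. Levels are log2 values of the authors' table, changes are ADR minus untreated, and a gene is called lower or higher where limma's paired test over all 18193 genes gave an adjusted p under 0.05.

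The proteasome degrades proteins that carry a ubiquitin chain. Its core is a barrel with outer rings of alpha subunits and inner rings of beta subunits, some of which hold the cutting sites, while the regulatory particle on its end binds the chain, removes it, unfolds the protein with a ring of ATPases and feeds it in. Proteasome inhibitors are used as drugs against some tumours of the B-cell lineage. NRF1, encoded by Nfe2l1, is the known activator of proteasome genes when proteasome capacity is short, and it binds antioxidant response elements in their promoters.

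To show the DNA around the starts of these genes, promoters were taken from RefSeq, assembly GRCm38.p6, for the 29 of 36 proteasome genes in that table. The 7 others are Psma8, Psmb1, Psmb2, Psmb7, Psmc3, Psmd3 and Psmd7. Psma1 and Psmd13 are shown because each had the lowest adjusted p of its particle, Psma1 from the core and Psmd13 from the lid. Capitals mark 5 sets of letters searched on either strand: CCAAT (NF-Y box), GGGCGG (GC box), CCGGAA (ETS core), CACGTG (E-box) and TGACNNNGC (core of the antioxidant response element). Both windows are the 150 bases before the start, at chr7:114276117-114276266 on the minus strand and chr7:140882244-140882393 on the plus strand.
Psma1: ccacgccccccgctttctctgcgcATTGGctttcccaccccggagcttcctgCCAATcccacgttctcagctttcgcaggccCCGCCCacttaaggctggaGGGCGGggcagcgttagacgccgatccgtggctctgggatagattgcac
Psmd13: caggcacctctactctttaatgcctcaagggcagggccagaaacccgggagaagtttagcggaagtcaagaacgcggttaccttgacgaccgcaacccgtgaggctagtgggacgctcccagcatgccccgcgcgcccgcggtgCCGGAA

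The antioxidant response element core lay within 250 bases before the start in 5 of the 29 promoters (17.2%), against 10.1% of 27025 promoters in the table. It was present in 3 of the 8 called genes that the table holds (Psmc6, Psmd9 and Psmd12) and in 2 of the 21 others (Psmb5 and Psmb6). The windows below have 50 bases each with this core in capitals, from chr14:54618013-54618062 (minus), chr14:45329577-45329626 (plus), chr11:107479278-107479327 (plus) and chr5:123228139-123228188 (plus). They are shown because they lie wholly ahead of the annotated gene, which the window of Psmb6 does not. Psmc6, Psmd9 and Psmd12 were called lower, and Psmb5 was not, nor was Psmb6. In Psmc6 and Psmd12 the match is on the opposite strand, so the capitals there are its reverse complement.
Psmb5: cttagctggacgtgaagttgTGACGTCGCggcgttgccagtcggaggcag
Psmc6: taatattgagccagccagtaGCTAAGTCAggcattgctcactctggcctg
Psmd12: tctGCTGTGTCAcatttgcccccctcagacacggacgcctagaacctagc
Psmd9: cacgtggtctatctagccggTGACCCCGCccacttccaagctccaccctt

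Among the other letters searched, the ETS core was found in 12 of 29 promoters (41.4%, against 12.2% of all promoters). The GC box was found in 17 (58.6%, against 32.9%). The NF-Y box was in 12 (41.4%, against 34.5%) and the E-box in 2, Psma4 and Psmd9 (6.9%, against 6.05%). Called and uncalled genes both held the GC box (6 of 8 and 11 of 21) and the ETS core (3 of 8 and 9 of 21). These matches describe letters in a window and show no binding.

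With ADR, 12 of the 36 proteasome genes were called lower (33.3%) and 0 were called higher. Over all genes, 12.8% were called lower and 13.7% higher. The 12 were Psma1, Psma2, Psma4, Psmb1, Psmb4, Psmb7, Psmc3, Psmc6, Psmd3, Psmd9, Psmd12 and Psmd13, and each was between 1.13-fold and 1.29-fold lower. The median change of the 36 was -0.15 (all genes -0.006), and 27 of 36 changes lay below 0 (75%, against 51.6% of all genes). Among the 34 proteasome genes with a mean level above the highest array median of 4.47, taken here as the floor, 12 were called lower (35.3%, against 19.2% of the 11358 genes above it). In these bulk samples fewer cells of a type and less RNA per cell cannot be told apart. The groups overlapped in every proteasome gene, and they were free of overlap in only 0.297% of all genes. In a fit without the lymphoma block, which ignores the pairing, 4 were called lower (8.68% of all genes), and with the most variable probe set of each gene 7 were (12.1% of all genes).

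**Figure D1:**
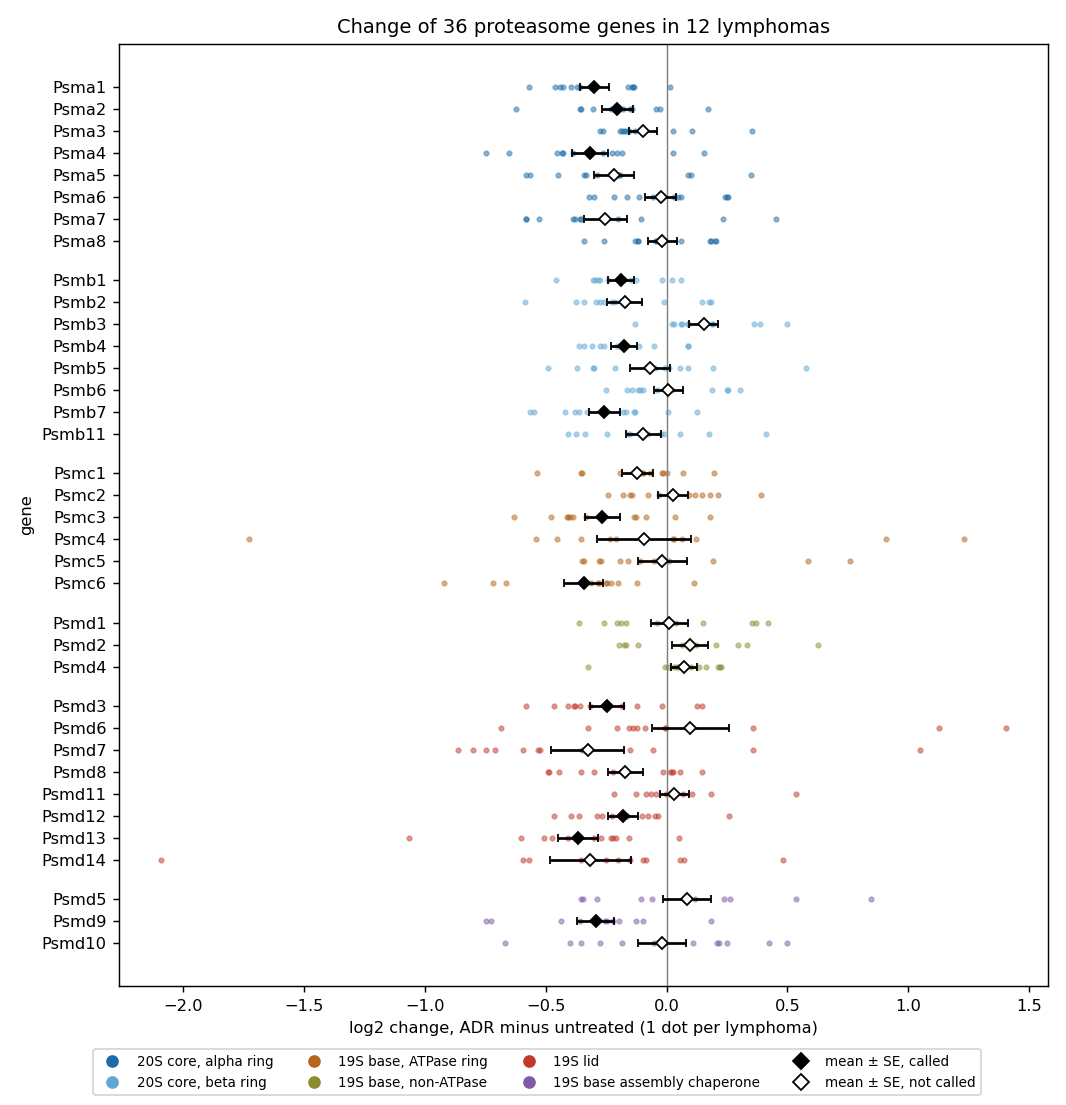
Change of each proteasome gene (vertical axis) with ADR on the log2 scale (horizontal axis), with 1 dot per lymphoma, coloured by part of the proteasome, and a diamond for the mean ± SE of 12 pairs. Filled diamonds, the 12 genes called lower, lie between -0.37 and -0.18, and the highest open diamond is Psmb3 at 0.15.

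All 8 alpha-ring genes had a mean change below 0 (median -0.21), and 3 of them, Psma1, Psma2 and Psma4, were called lower. The alpha ring forms the gate of the core barrel. Psma1 ranged from 10.92 to 11.39 in untreated lymphomas with a median of 11.25, and from 10.58 to 11.12 with ADR with a median of 10.91. No ADR array exceeded the untreated median, and 6 of 12 lay below the lowest untreated array. The mean went from 11.21 ± 0.14 to 10.91 ± 0.15 (SD, n = 12), a change of -0.30 (SE 0.059, adjusted p = 0.00197 in limma), or 1.23-fold lower, and it was lower in 11 of 12 lymphomas. Averaged with its 3 weaker probe sets, which were not called, Psma1 changed by -0.05 (adjusted p = 0.719).

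Psma4 ranged from 10.62 to 11.56 untreated (median 11.01) and from 10.33 to 11.59 with ADR (median 10.70). Its highest value of all 24 arrays was an ADR array, while 11 of the 12 ADR arrays were at or below the untreated median. On average it went from 11.07 ± 0.29 to 10.75 ± 0.31 (SD, n = 12), a change of -0.32 (SE 0.076, limma adjusted p = 0.00707), lower in 10 of 12. Psma2 ranged from 11.40 to 11.94 untreated (median 11.71) and from 11.09 to 11.89 with ADR (median 11.54). The groups overlapped over most of their range, with 2 ADR arrays below all untreated ones. Its average moved from 11.70 ± 0.15 to 11.50 ± 0.21 (SD, n = 12), a change of -0.20 (SE 0.063, limma adjusted p = 0.028), lower in 11 of 12.

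Psma5 (-0.22, limma adjusted p = 0.0628) and Psma7 (-0.25, adjusted p = 0.0508) did not pass the threshold with the probe set used here. For each of them another probe set was called lower, at -0.30 (adjusted p = 0.0118 over 34945 probe sets) for Psma5 and at -0.37 (adjusted p = 0.0189) for Psma7. Psma3 (-0.10) and Psma6 (-0.02) were not called. Psma8, the alpha subunit of the testis, lay between 2.88 and 3.67 in all 24 arrays, below the floor, so no change of its own is read. Without it the median change of the alpha ring was -0.22 over 7 genes.

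The beta ring holds the cutting sites, carried by Psmb5, Psmb6 and Psmb7, and 1 of these, Psmb7, was called lower. Psmb7, the trypsin-like subunit, ranged from 10.48 to 11.59 untreated (median 11.25) and from 10.61 to 11.34 with ADR (median 10.99). One lymphoma, 2949, was the lowest in both groups and was slightly higher with ADR, while in 10 others the ADR array was the lower. Its mean went from 11.21 ± 0.28 to 10.95 ± 0.20 (SD, n = 12), a change of -0.26 (SE 0.066, limma adjusted p = 0.0105), or 1.20-fold lower, in 10 of 12 lymphomas. Psmb5, the chymotrypsin-like subunit that bortezomib binds, changed by -0.07 (SE 0.084, adjusted p = 0.627), and Psmb6, the caspase-like subunit, by 0.0079 (SE 0.061, adjusted p = 0.948). Neither passed the test, and the differences of their change from that of Psmb7 were not tested.

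The structural subunits Psmb1 and Psmb4 were also called lower. Psmb1 ranged from 11.19 to 11.74 untreated (median 11.53) and from 10.89 to 11.49 with ADR (median 11.31). No ADR array exceeded the untreated median. The mean went from 11.49 ± 0.15 to 11.30 ± 0.15 (SD, n = 12), a change of -0.19 (SE 0.054, limma adjusted p = 0.0193), lower in 10 of 12. Psmb4 ranged from 11.48 to 12.20 untreated (median 11.77) and from 11.17 to 11.94 with ADR (median 11.68), with 3 ADR arrays below all untreated ones. On average it went from 11.78 ± 0.18 to 11.60 ± 0.23 (SD, n = 12), a change of -0.18 (SE 0.054, limma adjusted p = 0.0248), lower in 10 of 12. A second probe set of Psmb4, at 11.20 untreated and 11.14 with ADR, gave -0.06 and was not called (limma adjusted p = 0.666 over all probe sets).

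Psmb3, another structural beta subunit, stood on the other side. It ranged from 10.25 to 10.81 untreated (median 10.66) and from 10.56 to 11.19 with ADR (median 10.76), and its ADR value was the higher in 11 of 12 lymphomas. The mean change was 0.15 (SE 0.059, limma adjusted p = 0.071), which did not pass the threshold. A second probe set of Psmb3 with a similar level gave -0.09 (adjusted p = 0.435), so the probe sets of this gene differed in sign. Psmb2 changed by -0.17 (adjusted p = 0.0985). Psmb11, the beta subunit of the thymic cortex, lay between 3.10 and 3.75, below the floor, in all arrays, and without it the median of the beta ring was -0.17 over 7 genes.

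**Figure D2:**
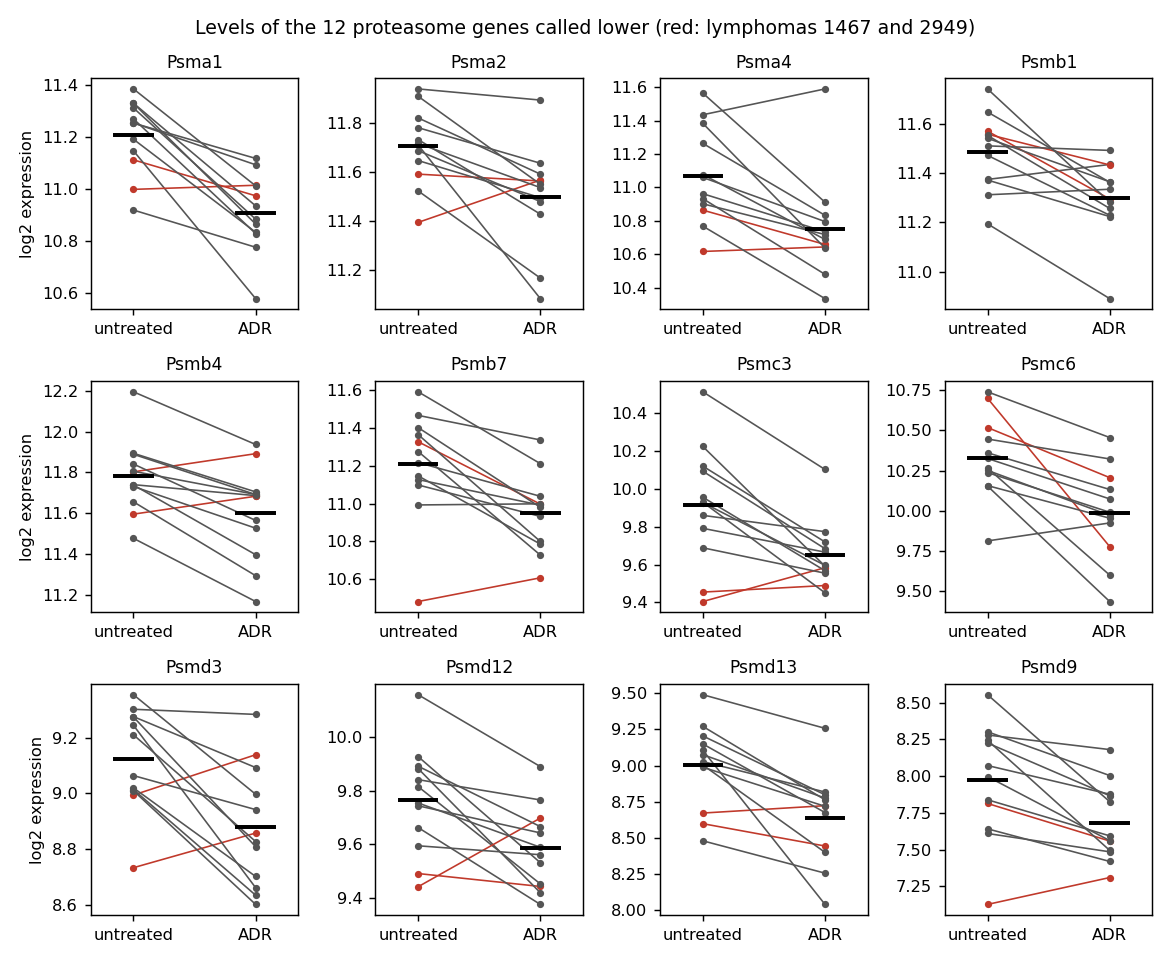
Level of the 12 proteasome genes called lower (log2 expression, vertical axes that do not start at 0) in untreated and ADR arrays, with 1 line per lymphoma and black bars at the group means. Most lines fall in every panel and the groups overlap, and lymphomas 1467 and 2949, in red, fall less or go up in several panels.

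The 6 ATPases of the base unfold the substrate and open the gate of the core. Psmc3 and Psmc6 were called lower, and the median change of the 6 was -0.11. Psmc6 ranged from 9.81 to 10.74 untreated (median 10.30) and from 9.44 to 10.46 with ADR (median 9.98), with 3 ADR arrays below all untreated ones. Its average moved from 10.33 ± 0.25 to 9.99 ± 0.29 (SD, n = 12), a change of -0.34 (SE 0.082, limma adjusted p = 0.00709), or 1.27-fold lower, in 11 of 12 lymphomas. The drop was spread unevenly, from 0.11 in the one lymphoma where it was higher to -0.92 in lymphoma 1467. A second probe set of Psmc6 was also called lower, at -0.31 (adjusted p = 0.012).

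Psmc3 ranged from 9.40 to 10.51 untreated (median 9.93) and from 9.45 to 10.10 with ADR (median 9.59). All ADR arrays but 1 were at or below the untreated median, and the 2 lowest untreated arrays were those of lymphomas 1467 and 2949, where Psmc3 was higher with ADR. Its mean went from 9.91 ± 0.31 to 9.65 ± 0.17 (SD, n = 12), a change of -0.27 (SE 0.071, limma adjusted p = 0.0136). Psmc1 (-0.12), Psmc2 (0.03) and Psmc5 (-0.02) were not called.

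Psmc4 had the widest spread of the ATPases, with a change of -0.09 (SE 0.19, limma adjusted p = 0.784) that ran from -1.73 in lymphoma 2581 to 1.23 in lymphoma 1467. Its probe sets did not follow each other. In the one used here the untreated arrays of 3594 and 3769 (9.33 and 9.14) were among the lowest, with 1467 (9.35), and lymphoma 2581 went from 10.84 to 9.12. In the second the untreated arrays of 3594 and 3769 stood at 9.59 and 9.56, within the range of the others, and 2581 went from 9.73 to 9.19. Both probe sets were low in untreated 1467 (9.35 and 8.43) and neither was called.

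The 3 non-ATPase subunits of the base, Psmd1, Psmd2 and Psmd4, dock ubiquitin chains and shuttling receptors or hold the ring in place. All 3 had a mean change above 0 (0.01, 0.10 and 0.07) and 0 were called. Psmd2 ranged from 10.33 to 10.83 untreated (median 10.57) and from 10.41 to 10.96 with ADR (median 10.64), and was higher in 8 of 12 lymphomas. The groups overlapped almost fully. The mean went from 10.55 ± 0.15 to 10.65 ± 0.19 (SD, n = 12), a change of 0.10 (SE 0.073, limma adjusted p = 0.383). Psmd4, a ubiquitin receptor, was higher in 10 of 12 (0.07, SE 0.053, adjusted p = 0.379). A second of its 3 probe sets, at 9.97 untreated and 9.86 with ADR, gave -0.11 (limma adjusted p = 0.446 over all probe sets). The third gave 0.05, so the probe sets of Psmd4 differed in sign.

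Of the 8 lid genes, Psmd3, Psmd12 and Psmd13 were called lower, and the median change of the lid was -0.21. The lid holds the enzyme that cuts the ubiquitin chain off, encoded by Psmd14, and the other subunits scaffold it. Psmd13 ranged from 8.48 to 9.49 untreated (median 9.05) and from 8.04 to 9.26 with ADR (median 8.72). Of the ADR arrays, 4 lay below all untreated ones and 1 exceeded the untreated median. On average it went from 9.01 ± 0.29 to 8.64 ± 0.31 (SD, n = 12), a change of -0.37 (SE 0.081, limma adjusted p = 0.0045), or 1.29-fold lower, in 11 of 12 lymphomas. It was the largest called change of the 36, and 3 of the 4 probe sets of Psmd13 were called lower.

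Psmd3 ranged from 8.73 to 9.35 untreated (median 9.14) and from 8.60 to 9.28 with ADR (median 8.84), with 4 ADR arrays below all untreated ones. Its average moved from 9.12 ± 0.18 to 8.88 ± 0.22 (SD, n = 12), a change of -0.25 (SE 0.071, limma adjusted p = 0.0194), lower in 10 of 12. The exceptions were lymphomas 1467 and 2949. Psmd12 ranged from 9.44 to 10.16 untreated (median 9.78) and from 9.37 to 9.89 with ADR (median 9.57). Its mean went from 9.77 ± 0.20 to 9.59 ± 0.15 (SD, n = 12), a change of -0.18 (SE 0.063, limma adjusted p = 0.0466), lower in 11 of 12. This was the call closest to the threshold, and over all 34945 probe sets the same probe set missed it (adjusted p = 0.0509).

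Among the lid genes that were not called, Psmd7 and Psmd14 had mean changes as large as those of called genes and a wider spread. Psmd7 changed by -0.33 (SE 0.15, limma adjusted p = 0.13). It was lower in 10 of 12 lymphomas and higher in 1467 (9.12 to 9.48) and in 2949 (8.42 to 9.47). Psmd14 changed by -0.32 (SE 0.17, adjusted p = 0.194), and a single lymphoma, 5560, went from 12.55, the highest of all arrays, to 10.46, the lowest. In the other 11 lymphomas the change of Psmd14 lay between -0.60 and 0.48.

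Psmd6 changed by 0.10 (SE 0.16, limma adjusted p = 0.725) with the probe set used here. It was low in untreated 1467 and 2949 (8.87 and 9.30) and stood at 10.28 and 10.43 there with ADR, while it was lower with ADR in 9 of the other 10. A second probe set of Psmd6 was also low in untreated 1467 and 2949 (8.84 and 9.22) but differed elsewhere. In untreated 3594 it stood at 8.97, against 10.52 with the first. In 2581 it went from 10.39 to 9.23, against 10.52 to 10.40 with the first. Its mean change was 0.04 (limma adjusted p = 0.925 over all probe sets). Psmd8 changed by -0.17 (adjusted p = 0.0959). Psmd11 changed by 0.03 (adjusted p = 0.763) with the probe set used here, and of its 8 probe sets 1 was called higher (0.26, adjusted p = 0.0271 over all probe sets). That was the only probe set of the 74 of these 36 genes called higher (11.3% of all 34945 probe sets were), and 16, in 13 genes, were called lower (12.5% of all).

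Of the base assembly chaperones, which leave the particle before it is complete, Psmd9 was called lower. It ranged from 7.13 to 8.55 untreated (median 8.04) and from 7.31 to 8.18 with ADR (median 7.58), with 1 ADR array above the untreated median. The lowest array of both groups was untreated. The mean went from 7.98 ± 0.39 to 7.68 ± 0.26 (SD, n = 12), a change of -0.29 (SE 0.076, limma adjusted p = 0.011), or 1.23-fold lower, in 11 of 12 lymphomas. Psmd5 (0.08, adjusted p = 0.614) and Psmd10, also known as gankyrin (-0.02, adjusted p = 0.926), were not called.

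Core and regulatory particle were compared within each lymphoma, by the mean change of the 16 core genes minus that of the 17 regulatory genes. The difference had a median of -0.0011 and a mean of -0.015 (SD 0.11, n = 12), and it lay below 0 in 6 lymphomas and above 0 in 6. It ranged from -0.17 in lymphoma 1467 to 0.16 in lymphoma 2581. Without Psma8 and Psmb11, which lay below the floor, the median difference was -0.03. The core changed by -0.14 ± 0.14 (SD, n = 12) and the regulatory particle by -0.12 ± 0.19, with 6 of 16 core genes and 5 of 17 regulatory genes called lower. The spread of the difference between lymphomas was larger than the difference, which was described without a test because the members were chosen.

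**Figure D3:**
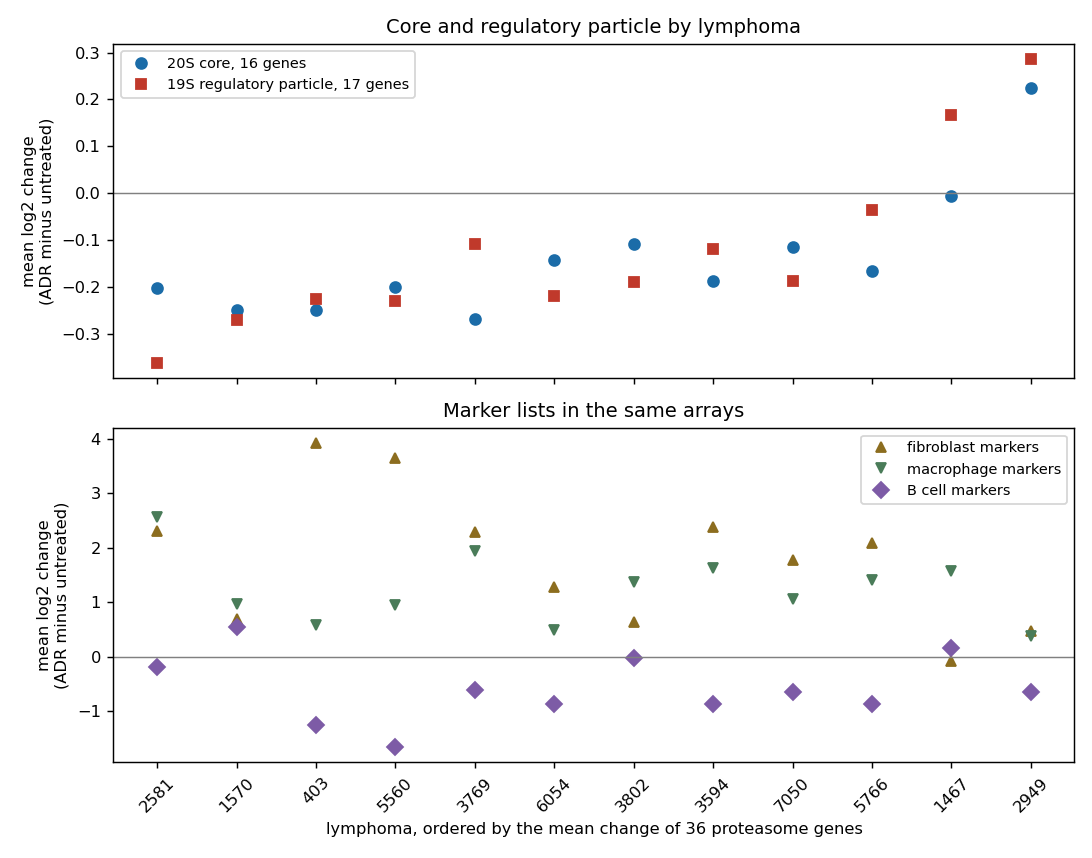
Mean log2 change of the core (circles) and of the regulatory particle (squares) in each lymphoma in the upper panel, and of fibroblast, macrophage and B cell marker lists in the same arrays in the lower panel. Core and regulatory particle both lie below 0 in 10 lymphomas, where core minus regulatory particle runs from -0.16 in 3769 to 0.16 in 2581. In 2949 both lie above 0, and in 1467 the regulatory particle does.

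The mean change of the 36 genes was below 0 in 10 of 12 lymphomas and ran from -0.27 in lymphoma 2581 to 0.26 in lymphoma 2949. In those 10 lymphomas between 24 and 30 of the 36 genes were lower with ADR. In lymphoma 1467 the mean was 0.06, with 17 of 36 genes lower, and in 2949 only 6 of 36 were lower. Of all genes 47.7% were lower in 1467 and 46.1% in 2949. For 22 of the 36 genes (61.1%) the lowest untreated value was that of 1467 or 2949. The same held for 33.6% of all genes above the floor. None of the 36 genes was lower in all 12 lymphomas, and 14 of 36 were lower in at least 10 (14.56% of all genes were). Psmb3 and Psmd4 were the 2 that were higher in at least 10, and for both a second probe set had a mean change below 0.

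**Figure D4:**
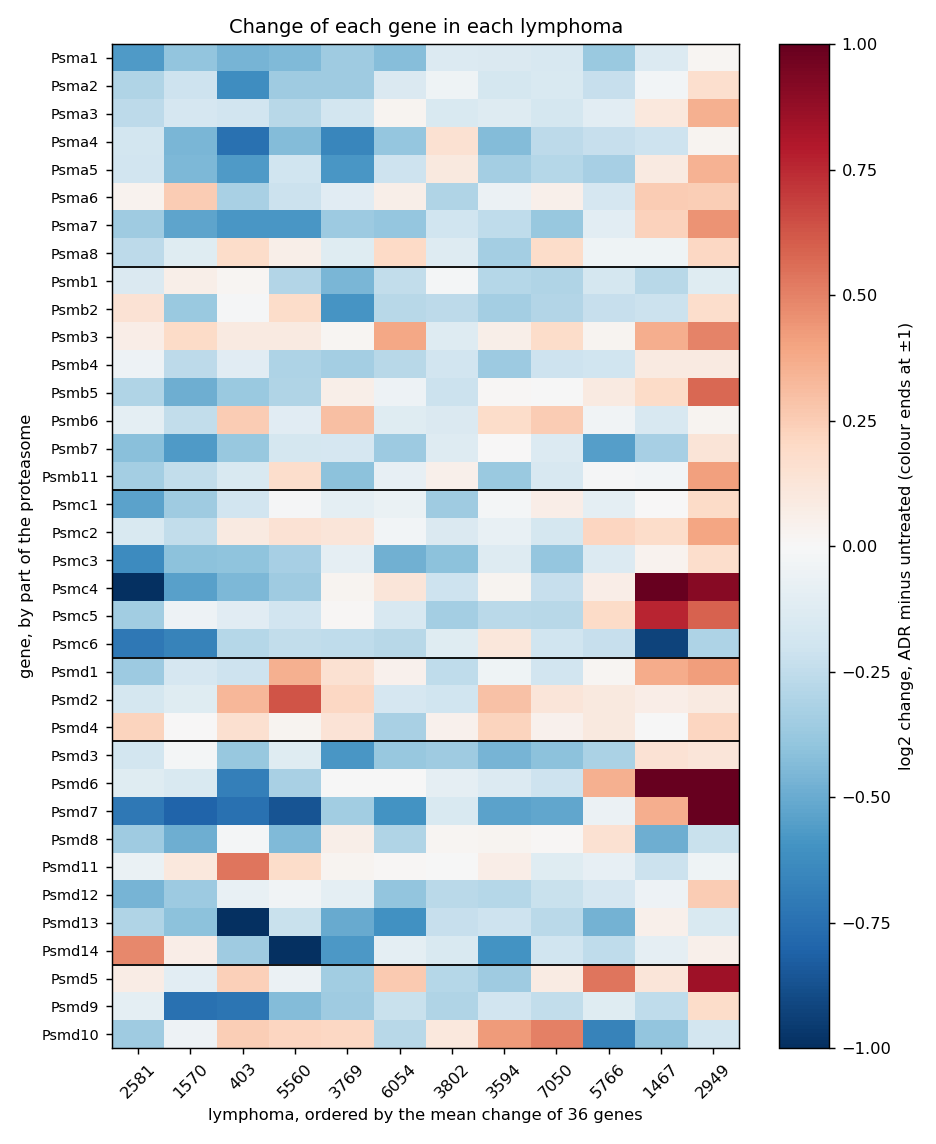
Log2 change of each proteasome gene (vertical axis) in each lymphoma (horizontal axis, ordered by the mean of the 36), with blue for lower and red for higher with ADR and the colour ending at ±1. Most cells are blue in 10 lymphomas, and the column of 2949, with 6 of 36 genes lower, is mostly red.

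The median SD of the proteasome genes over 12 lymphomas was 0.26 untreated and 0.22 with ADR, and the 34 above the floor had the same medians. It was 0.33 and 0.36 for all genes above the floor, and 0.24 and 0.27 for all 18193 genes. Some members varied more, with an untreated SD of 0.70 in Psmc4 and 0.63 in Psmd14. The SD was smaller with ADR in 18 of 36 genes (50%, against 41% of the genes above the floor), and in 16 of the 34 above the floor. Psmc5 was one of these, with an SD of 0.44 untreated and 0.17 with ADR, and its lowest untreated values were 8.84 in 1467 and 8.96 in 2949.

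Psmc3ip, whose protein acts in meiotic recombination and was kept apart, fell further than any proteasome gene. It ranged from 6.68 to 7.66 untreated (median 7.05) and from 4.93 to 6.74 with ADR (median 5.95). The groups overlapped in a single ADR array, the other 11 lying below all untreated arrays. On average it went from 7.09 ± 0.31 to 5.97 ± 0.54 (SD, n = 12), a change of -1.12 (SE 0.13, limma adjusted p = 6.28e-05), or 2.17-fold lower, in 12 of 12 lymphomas. With it, 13 of the 37 genes of the rule were called lower.

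Arrays of treated cells carried either "sen" (5 lymphomas) or "DOX" (7 lymphomas) in their file names, which could mark separate rounds of work. Within DOX alone 2 proteasome genes were called lower, Psmd3 and Psmd13 (8.8% of all genes), and within sen alone 0 were (2.6% of all genes), with 10 (27.8%) at an unadjusted p under 0.05 in limma, against 22.7% of all genes. The median change of the 36 genes was -0.07 in DOX and -0.14 in sen, against medians over all genes of -0.0035 and -0.0075. Psmc6 changed by -0.57 in sen and -0.18 in DOX, which was the member difference with the lowest adjusted p (0.694). The limma interaction called 0 of 18193 genes (0%), with 1237 at an unadjusted p under 0.05, Psmc6 and Psmd8 among them.

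The labelled cell type was checked against 12 B cell markers. All 11 that were measured lay above the floor in the mean, and the list had array means of 8.76 to 9.54 untreated and 7.25 to 10.09 with ADR. Of the 11, 4 (Cd79a, Cd22, Ebf1 and Vpreb3) were called lower (36.4%, against 12.8% of all genes) and 0 higher. The mean change lay below 0 in 9 and above 0 in 2. These 2 were Ms4a1 (0.17) and Cd72 (0.30, higher in 11 of 12 lymphomas), and neither was called. Markers of other cells moved in the same arrays. The fibroblast list (27 of 28 measured) had array means of 4.36 to 5.13 untreated and 4.71 to 8.58 with ADR, and 21 markers were called higher, while Pdgfrb, Lum and Fap stayed near the floor in both groups. The macrophage list (20 measured) had array means of 4.90 to 7.72 untreated and 5.88 to 8.67 with ADR, with 14 called higher and Mrc1, Mertk, C1qa and Cd163 near the floor in both. Of the neutrophil list 4 of 12 (S100a8, Lcn2, Mmp8 and Mmp9) were called higher, with S100a9, Mpo, Elane, Ngp, Ltf and Cxcr2 near the floor. Of 9 measured T and NK cell markers 0 were called by limma, with Cd3d, Cd3g, Cd247, Nkg7 and Ncr1 near the floor.

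The marker lists are set beside the proteasome genes in the lower panel of the plot of core and regulatory particle. In 403 and 5560 the fibroblast mean changed by 3.91 and 3.65, the macrophage mean by 0.59 and 0.95 and the B cell mean by -1.26 and -1.66, where the 36 proteasome genes changed by -0.22 and -0.20. In 2581 the 3 lists changed by 2.30, 2.56 and -0.19, and the proteasome genes by -0.27. In 1570 they changed by 0.69, 0.97 and 0.55 (proteasome genes -0.26), and in 3802 by 0.64, 1.37 and -0.03 (proteasome genes -0.15). In 1467 and 2949, where the proteasome genes changed by 0.06 and 0.26, the fibroblast mean changed by -0.08 and 0.46, the macrophage mean by 1.57 and 0.38 and the B cell mean by 0.16 and -0.65. In the other 5 lymphomas the fibroblast mean changed by 1.27 to 2.38 and the proteasome genes by -0.18 to -0.10. Without 403 and 5560, limma called 7 of the 36 lower (10.0% of all genes). The part of these markers in the proteasome change was not tested, beyond fitting them as covariates.

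With the fibroblast marker mean of each array added to limma as a covariate, 0 of the 36 proteasome genes were called lower (3.39% of all genes) and 3, Psmb3, Psmc6 and Psmd6, had an unadjusted p under 0.05 (8.33%, against 19.8% of all genes). The median change of the 36 was then -0.05, with 20 below 0 and 16 above, and the median SE was 0.12, against 0.071 without the covariate. Of the 12 called genes 11 kept a change below 0, and Psma2 had a change of 0.04. Psmc6 (-0.51, adjusted p = 0.0534) and Psmd6 (0.72, adjusted p = 0.0599) lay at the ends. Psmc3ip stayed called at -1.42 (adjusted p = 0.00493). With the macrophage mean added as well, 0 of 18193 genes were called (0%), 2179 (12%) had an unadjusted p under 0.05, and 18 of the 36 changes lay below 0.

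**Figure D5:**
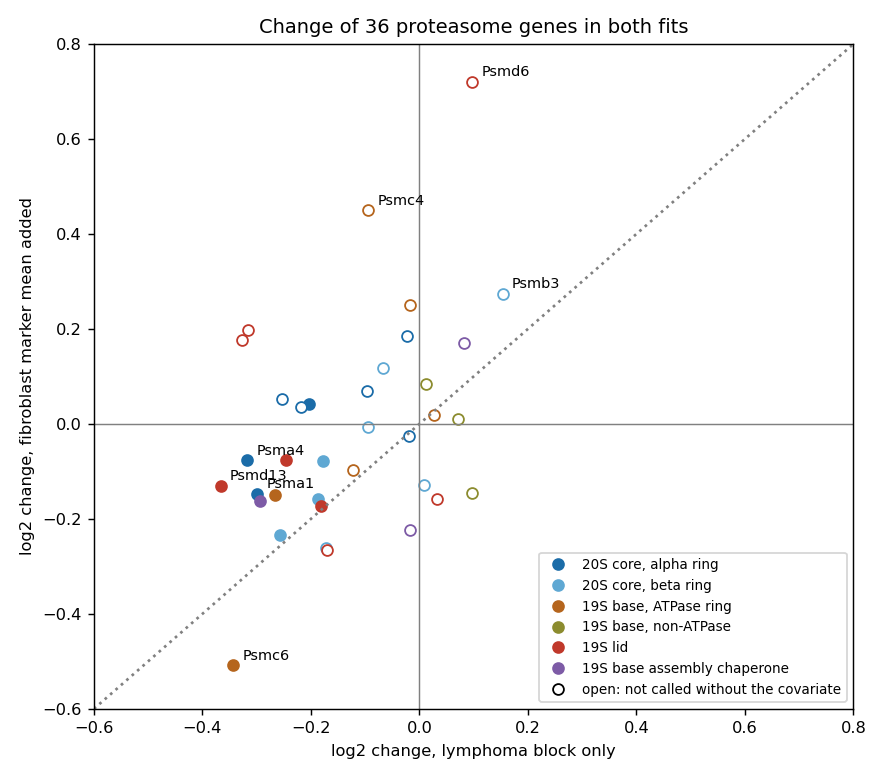
Log2 change of each proteasome gene in the fit with the lymphoma block only (horizontal axis) and with the fibroblast marker mean added (vertical axis), with filled points for the 12 genes called lower without the covariate and a dotted line where both are equal. Of the filled points, 11 stay below 0 on the vertical axis and most lie above the dotted line, with Psmc6 at -0.51 below it.

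Of 33 measured genes of a list of other ubiquitin-proteasome genes, 7 were called lower (12.8% of all genes) and 6 higher (13.7% of all genes). All 3 inducible subunits of the immunoproteasome, which replace the cutting subunits of the core in immune cells, had changes below 0 in the paired fit. Psmb9 ranged from 8.57 to 10.01 untreated (median 9.40) and from 8.26 to 9.42 with ADR (median 8.96), a change of -0.44 (SE 0.12, limma adjusted p = 0.0116). Psmb8 ranged from 10.19 to 11.06 untreated and from 9.65 to 10.89 with ADR, a change of -0.33 (SE 0.096, adjusted p = 0.0198), lower in 11 of 12. Psmb10 ranged from 7.99 to 9.51 untreated (median 9.26) and from 8.09 to 9.65 with ADR (median 8.82), with a change of -0.21 (SE 0.14, adjusted p = 0.29) that was not called. With the fibroblast covariate Psmb8 was at 0.0073 and Psmb10 at 0.43 (adjusted p = 0.0756), so their direction turned, and Psmb9 was at -0.35 (adjusted p = 0.407). Constitutive and inducible cutting subunits thus each had members called lower and members that were not.

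Of the 20S assembly chaperones, 2 of 5 were called lower. Psmg1 ranged from 8.06 to 9.69 untreated (median 9.20) and from 7.68 to 9.02 with ADR (median 8.48), and no ADR array exceeded the untreated median. Its change was -0.66 (SE 0.18, limma adjusted p = 0.0148), or 1.58-fold lower, in 10 of 12. Pomp, the chaperone that matures the beta ring, ranged from 10.06 to 11.003 untreated (median 10.79) and from 10.19 to 10.99 with ADR (median 10.74), a change of -0.07 (SE 0.047, adjusted p = 0.3). Among activators and the inhibitor of the core 1 of 4 was called, Psme3, which encodes the nuclear activator PA28 gamma (-0.42, SE 0.13, adjusted p = 0.0325). It ranged from 7.33 to 9.17 untreated (median 8.88) and from 7.96 to 8.79 with ADR (median 8.17). This call was lost in 8 of the 12 omissions of a single lymphoma, without 1570, 2581, 3594, 3769, 403, 5560, 5766 or 7050 (adjusted p 0.0537 to 0.0726).

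The largest fall of the list was that of Uchl5, a deubiquitinase of the regulatory particle. It ranged from 9.69 to 10.84 untreated (median 10.40) and from 8.69 to 10.25 with ADR (median 9.36), with 9 ADR arrays below all untreated ones. The change was -0.92 (SE 0.14, limma adjusted p = 0.000339), or 1.89-fold lower, in 12 of 12 lymphomas. In the group of receptors, deubiquitinases and other bound factors 2 of 11 were called lower and 2 higher.

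Of 3 genes that act on proteasome gene transcription, 2 were called higher. Nfe2l1 ranged from 7.26 to 8.65 untreated (median 7.60) and from 7.73 to 9.33 with ADR (median 8.48), and all 12 ADR arrays exceeded the untreated median. Its change was 0.73 (SE 0.15, limma adjusted p = 0.00313), or 1.65-fold higher, in 11 of 12. Nfe2l2, encoding the oxidative stress factor NRF2, ranged from 7.66 to 9.90 untreated (median 9.60) and from 9.62 to 11.05 with ADR (median 10.34). It rose by 0.90 (SE 0.13, adjusted p = 0.000227), or 1.87-fold, in 12 of 12. With the fibroblast covariate Nfe2l1 was at 0.17 (adjusted p = 0.74) and no longer called, and Nfe2l2 was at 0.95 (adjusted p = 0.0339) and still called. Of 6 genes of the p97 segregase, which pulls proteins out of complexes for degradation, 2 were called higher, with Faf2, a p97 adaptor, at 0.31 (SE 0.08, adjusted p = 0.00976). Faf2 ranged from 6.40 to 7.63 untreated (median 7.37) and from 7.22 to 7.93 with ADR (median 7.66). The remaining called genes of the list, named after their values were seen, were Psmg2 (-0.65) and Ubqln1 (-0.22), lower, and Ubqln2 (0.43), Zfand5 (0.37) and Vcp (0.22), higher.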

How the data were processed

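Biotin-labelled total RNA of 24 samples was hybridised to Affymetrix arrays. The authors deposited 1 log2 value per probe set and array. Per the submitters' processing notes RMA and Partek were used, with versions not given in the sources used here. Scanner files were not used here. RMA values near the floor understate changes, and array number limits the precision. Array medians lay between 4.38 and 4.47, and 0 arrays were identical. Of 45101 probe sets, 34945 had 1 gene symbol, 932 several, 9160 none and 64 were controls. Each of 18193 genes took the values of the probe set, among those of 1 gene, that was brightest on average over the 24 arrays.

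Paired tests were made in R 4.3.3 by limma 3.58.1 (lymphoma block), with Benjamini-Hochberg adjustment over 18193 genes and a threshold of 0.05. The series' design text states matched pairs, and lymphoma numbers in the titles pair the arrays. Within pairs, deviations from the group means correlated between 0.257 and 0.589, and 10 of 12 untreated arrays correlated best with their own partner. The exceptions were lymphomas 2949 and 6054. On simulated data with 18193 genes, this fit recovered 12% of log2 changes of 0.25, 62% of 0.5, 82% of 1 and 98% of 2, with 3.05% of calls false. Summaries used Python 3.11.15 with numpy 2.4.6 and pandas 2.3.3, and figures matplotlib 3.10.9.

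Members, lists, tests and alternatives were chosen with earlier results of these data known. By rule, values were given for every called member and for Psmd2, the largest change in the part with no call. Of the other pathway genes the rule named the largest called change of each role and Nfe2l1, Nfe2l2, Psmb8, Psmb9, Psmb10 and Pomp. Details of other members were chosen after their values were seen.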

Additional observations from a re-analysis of the deposited data

How the results depend on the processing

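Most of the 12 calls rest on the pairing: with no replicate block 4 proteasome genes were called lower (8.68% of all genes), Psma1, Psmc6, Psmd3 and Psmd13, and 4 of the pathway list lower and 3 higher. Within the DOX set 2 proteasome genes were lower (8.8% of all genes), and of the pathway genes 4 were lower and 4 higher (1649 of 18193 genes were higher). Within the sen set 0 proteasome genes were lower (2.6% of all genes), with 1 pathway gene lower and 1 higher (338 of 18193 genes were higher). Without lymphomas 403 and 5560, which had the largest fibroblast marker changes, 7 proteasome genes (10.0% of all genes) and 4 pathway genes were lower. With the probe set of largest variance 7 were lower (12.1% of all genes), and Psma1 was then at 0.065 from a probe set near the floor.

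With the fibroblast covariate 0 proteasome and 0 pathway genes were lower (3.39% of all genes) and 1 pathway gene was higher (423 of 18193 genes were). Psma2 (0.041), Psme3 (0.075), Psmg1 (0.098) and Psmb8 (0.0073) turned direction, as did the uncalled Psmb10 (0.43) and Psmd2 (-0.15). With both covariates 0 were called in either direction by limma in both lists, the median change was -0.0025, and Psma2 (0.082), Psmd3 (0.0021), Psme3 (0.33) and Psmg1 (0.19) turned. The cause was not tested. The median SE was 0.18. Quantile normalization called 1 proteasome gene higher, Psmb3 (0.17, adjusted p = 0.04), as did leaving out lymphoma 3802, and counting any probe set called 1 gene higher, Psmd11.

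Leaving out 1 lymphoma at a time gave 9 (without 3769 or 5560) to 15 (without 2949) proteasome genes lower, where 10.6%, 11.2% and 14% of all genes were, and 0 to 1 higher, a median of -0.18 to -0.12, 6 to 8 pathway genes lower and 5 to 6 higher, and a core minus regulatory median of -0.023 to 0.020. Of the 12 calls, 9 held in every omission. Psma2 was lost without 2581, 3769, 403, 5560 or 5766 (adjusted p up to 0.0612), Psmb4 without 3594, 3769 or 5560 (up to 0.0567), and Psmd12 in all omissions but those of 1467 and 2949 (up to 0.094). All 12 stayed called with median centring, with genes near the floor left out and in exact sign-flip tests over pairs, adjusted over all genes. Quantile normalization and eBayes with trend and robust settings each lost Psmd12. Averaging the probe sets of a gene lost Psma1 (-0.05, adjusted p = 0.719) and Psmb4 (-0.12, adjusted p = 0.138). Most changes of 0.25 were missed in the simulation, where only 200 genes were changed. Far more genes were called in the data, so that share does not carry over to the members. A member without a call is still not shown to be unchanged.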
